A study of Caenorhabditis elegans with 2 samples.

Results

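The regions described here are the candidate peaks on the X chromosome of Caenorhabditis elegans that lie away from transfer RNA (tRNA) genes, in a chromatin immunoprecipitation sequencing (ChIP-seq) study of the protein B0019.2. A candidate was taken when its summit lay on X and not within 1000 bp upstream to 200 bp downstream of the start of a tRNA gene. This gave 8748 of the 55591 candidates. Under the same rule the 5 autosomes held 46151 candidates, so that 54899 candidates were away from tRNA genes in all. Candidates near tRNA genes, 280 on X and 412 on the autosomes, were set aside. A candidate is said to pass when it is in the authors' conservative list made from both libraries, which was selected on the irreproducible discovery rate (IDR), a score of how well peak ranks agree between inputs.

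Both libraries came from whole young adult worms of strain RW12288, aged 63.5 h and synchronised by starvation as L1 larvae after bleaching. The strain carries the edited allele st12288, in which CRISPR placed TY1, EGFP and 3xFLAG tags on B0019.2, and chromatin was sheared by sonication to 200 to 800 bp and precipitated with an antibody against GFP. The 2 libraries are biological replicates of 1 group, no untagged or input library was analysed here, and the sex of the worms was not collected. The deposited lists give a signal value per peak on a scale that is not stated and no read counts, so depth is unknown. Signal values were compared only within a list. In whole worms, binding in fewer cells and weaker binding per cell cannot be told apart.

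The X chromosome of C. elegans is largely silent in germ cells through much of their development, and genes with germline functions are scarce on it. In the somatic cells of hermaphrodites a dosage compensation complex binds X and lowers its transcription. X is also rich in tRNA genes, which RNA polymerase III transcribes from internal promoter elements, the A box and the B box. Part of the repeated DNA of the worm consists of short units in tandem, and some of these arrays hold heat shock elements, the binding sequence of the heat shock factor HSF-1.

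The passing X members included a family of tandem arrays and single sites with no repeated sequence, and examples of each are printed because they show what kind of DNA passed. Each line is a summit base with 50 bases to either side, on the plus strand of WBcel235 (ce11). Capitals in the first 4 mark matches to a heat shock element, taken as 3 alternating TTC and GAA triplets with 2 free bases between them, on either strand, with overlapping matches merged.
Intergenic, beyond fbxa-190, chrX:1375220-1375320: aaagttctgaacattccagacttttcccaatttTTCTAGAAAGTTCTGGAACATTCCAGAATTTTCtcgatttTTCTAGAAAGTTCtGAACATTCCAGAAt
Intergenic, beyond Y102A11A.11, chrX:2057949-2058049: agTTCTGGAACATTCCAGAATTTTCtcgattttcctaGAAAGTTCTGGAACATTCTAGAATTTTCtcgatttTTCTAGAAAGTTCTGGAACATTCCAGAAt
Same array, chrX:2058177-2058277: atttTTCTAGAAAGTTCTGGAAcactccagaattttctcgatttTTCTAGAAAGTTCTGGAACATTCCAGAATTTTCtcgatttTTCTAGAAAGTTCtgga
Intergenic, upstream of K09E9.10, chrX:15635248-15635348: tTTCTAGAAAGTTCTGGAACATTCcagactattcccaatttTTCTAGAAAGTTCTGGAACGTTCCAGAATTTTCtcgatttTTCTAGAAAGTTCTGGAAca
Intron of piki-1 at cel-mir-4812, chrX:15242850-15242950, capitals mark the B box letters GTTCGANNC, read on the minus strand: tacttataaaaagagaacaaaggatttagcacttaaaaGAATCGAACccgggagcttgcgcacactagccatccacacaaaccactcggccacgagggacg
Upstream of C17H11.4, chrX:8182042-8182142, capitals mark stretches of 20 bases or more shared with another X member that reached the IDR threshold: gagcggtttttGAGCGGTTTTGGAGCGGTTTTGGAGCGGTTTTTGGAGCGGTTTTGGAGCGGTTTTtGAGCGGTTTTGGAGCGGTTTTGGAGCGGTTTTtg
Exon of meg-1, chrX:13928980-13929080, no capitals: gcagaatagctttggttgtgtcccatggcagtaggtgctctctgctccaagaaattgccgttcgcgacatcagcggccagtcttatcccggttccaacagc
Upstream of F46H5.7, chrX:7242958-7243058, no capitals: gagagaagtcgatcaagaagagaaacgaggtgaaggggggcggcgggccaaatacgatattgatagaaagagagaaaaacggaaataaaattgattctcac

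The regions that reached the same IDR value but are not in the authors' list are led by other tandem repeats. The strongest candidate of the whole ranked list is among them and is printed with a member of the largest shared-sequence family, without capitals.
Upstream of pseudogene WBGene00044155, chrX:15811060-15811160: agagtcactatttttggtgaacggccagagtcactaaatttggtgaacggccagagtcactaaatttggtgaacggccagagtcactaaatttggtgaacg
Upstream of pseudogene WBGene00022023, chrX:5056879-5056979: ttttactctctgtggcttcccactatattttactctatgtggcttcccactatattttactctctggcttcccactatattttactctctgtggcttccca

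X members rarely passed. The main list held 20 of the 8748 (0.229%, exact 95% binomial interval 0.140 to 0.353%), against 787 of 46151 autosomal candidates (1.71%, 1.59 to 1.83%) and a background of 1.47% over all candidates away from tRNA genes. The X share was 7.46-fold lower, and the intervals did not overlap. Intervals here cover counting error only, and neighbouring peaks are not independent. X did not lack candidates: it held 494 per Mb, against 559 per Mb on the autosomes, and the passing peaks numbered 1.13 and 9.53 per Mb.

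The same difference was present in each library. Among the candidates of replicate 1 itself, 12 of 7060 on X (0.170%) were in that library's own thresholded list, against 480 of 37856 on the autosomes (1.27%) and a background of 1.10%. Replicate 2 gave 10 of 6014 on X (0.166%) and 455 of 31974 on the autosomes (1.42%), with a background of 1.22%. The other list made from both libraries held 18 of 6914 X candidates (0.260%) and 760 of 37543 autosomal ones (2.02%), with a background of 1.75%. The autosomal share exceeded the X share 7.46-fold in replicate 1, 8.56-fold in replicate 2 and 7.78-fold in the other list.

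The shortfall on X was largest at promoters. A promoter window was taken as 1000 bp upstream to 200 bp downstream of any annotated gene start. In these windows 5 of 2859 X members passed (0.175%, 0.0568 to 0.408%), against 628 of 16056 autosomal candidates (3.91%, 3.62 to 4.22%) and a background of 3.35%. Outside the windows 15 of 5889 X members passed (0.255%, 0.143 to 0.420%), against 159 of 30095 (0.528%, 0.450 to 0.617%) and a background of 0.484%. The ratio between autosomes and X was thus 22.4 in promoter windows and 2.07 elsewhere.

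In each library taken alone the promoter difference was again present. Replicate 1 listed 2 of 2283 X promoter candidates (0.0876%) and 397 of 13223 autosomal ones (3.00%), and replicate 2 listed 2 of 1968 (0.102%) and 374 of 11503 (3.25%). Outside promoter windows the shares were 0.209% on X and 0.337% on the autosomes in replicate 1, and 0.198% and 0.396% in replicate 2. These last intervals overlapped in both libraries, so the smaller difference away from promoters was not resolved in a single library.

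X stood below every autosome at promoters. The share of promoter candidates that passed was 5.70% on chromosome I, 3.84% on II, 5.59% on III, 3.52% on IV and 2.04% on V. The upper bound on X, 0.408%, lay under the lower bound on V, 1.62%. Outside promoter windows the autosomes ran from 0.439% on V to 0.713% on IV, and the X interval overlapped those of I, II, III and V but not that of IV.

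**Figure D1:**
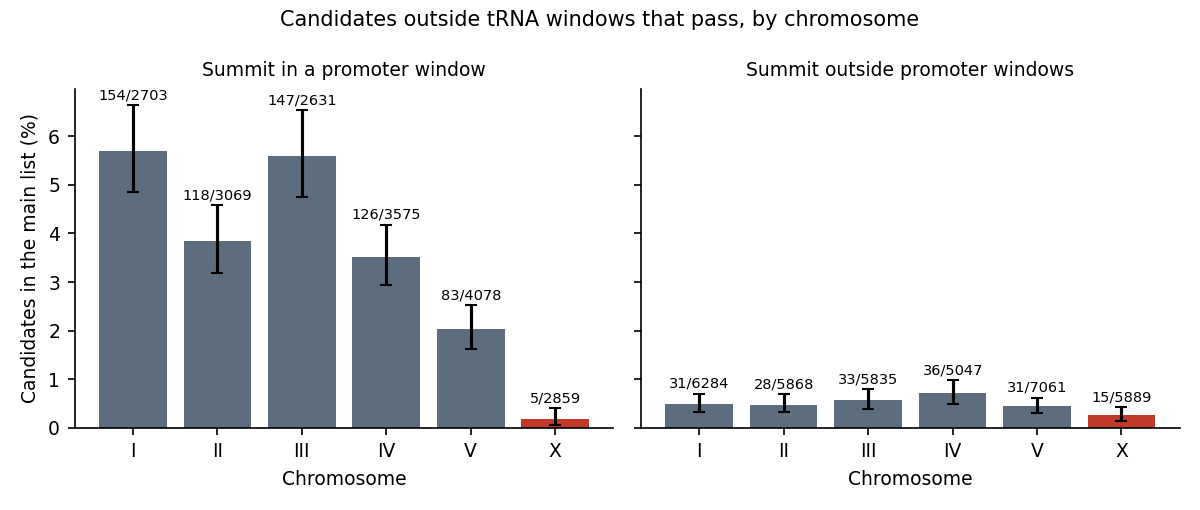
Share of candidates away from tRNA genes that are in the main list (vertical axis, %), by chromosome, for summits in promoter windows (left) and outside them (right). Bars are shares, error bars are exact 95% binomial intervals, and the numbers above are passing over all candidates: X has 5 of 2859 at promoters and 15 of 5889 elsewhere.

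Before the threshold, the share of candidates in promoter windows differed little between X and the autosomes. Promoter windows held 32.7% of all X members and 34.8% of autosomal candidates. Intergenic summits were more common on X, at 18.4% against 12.9%. After the threshold promoter windows held 5 of 20 on X (25%, 8.66 to 49.1%) and 628 of 787 on the autosomes (79.8%, 76.8 to 82.5%). Of the other 15 passing X members, 9 were intergenic, 2 lay in coding exons, 2 in non-coding exons and 2 in introns. The median distance from a passing summit to the nearest protein-coding gene start was 2818.5 bp on X and 331 bp on the autosomes.

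**Figure D2:**
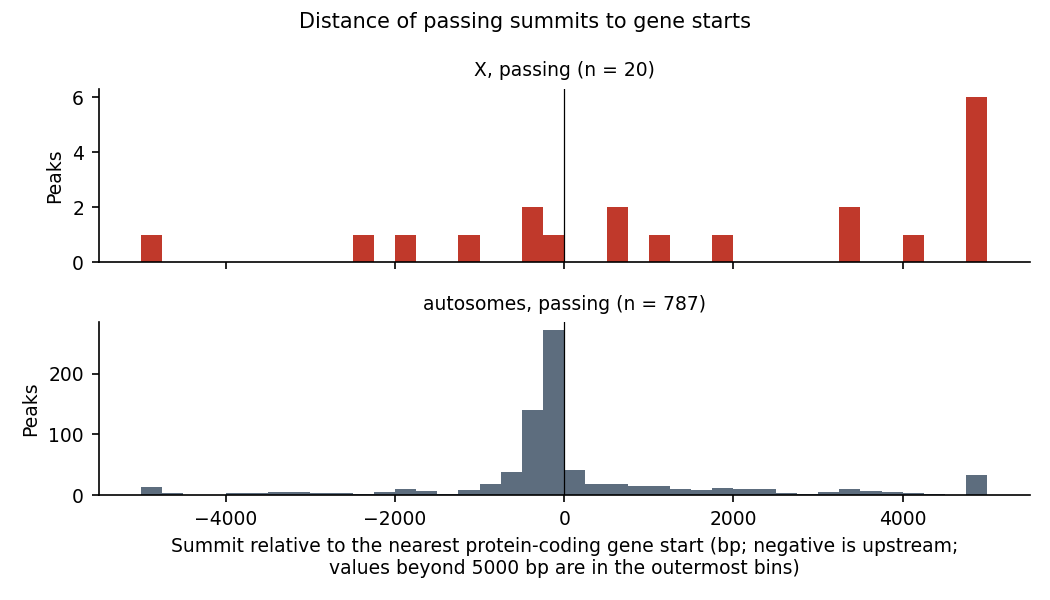
Distance from each passing summit to the nearest protein-coding gene start (horizontal axis, bp, negative is upstream), as counts of peaks in bins of equal width, for X (top, n = 20) and the autosomes (bottom, n = 787). Autosomal summits pile up just upstream of starts, and X summits are scattered.

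Near tRNA genes, which the rule sets aside, the shares were close. There 35 of 280 X candidates passed (12.5%, 8.86 to 17.0%) and 58 of 412 autosomal ones (14.1%, 10.9 to 17.8%), and the intervals overlapped. The summits of 7 of these 35 X peaks also lay in the window of a protein-coding gene.

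The signal values showed the same pattern without any threshold on the IDR, but passing is not independent of them. All 20 passing X members and 770 of the passing autosomal peaks were in the upper part of the candidates by signal value. The median signal values were close, 27.1 on X and 28.0 on the autosomes. The upper tail differed, with a 99th percentile of 59.4 for X promoter candidates and 144 for autosomal ones. A value of 100 or more was reached by 2 of 2859 X promoter candidates (0.0700%) and 346 of 16056 autosomal ones (2.15%), and both X cases are tandem repeats that are not in the main list. Outside promoter windows the shares at 100 or more were 12 of 5889 on X (0.204%) and 90 of 30095 on the autosomes (0.299%). At 200 or more they were 7 (0.119%) and 25 (0.0831%), and of these 7 X members 5 are unlisted repeated regions and 2 pass. The 99th percentile at promoters was 36.6 on X and 80.9 on the autosomes in replicate 1, and 33.9 and 81.0 in replicate 2.

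**Figure D3:**
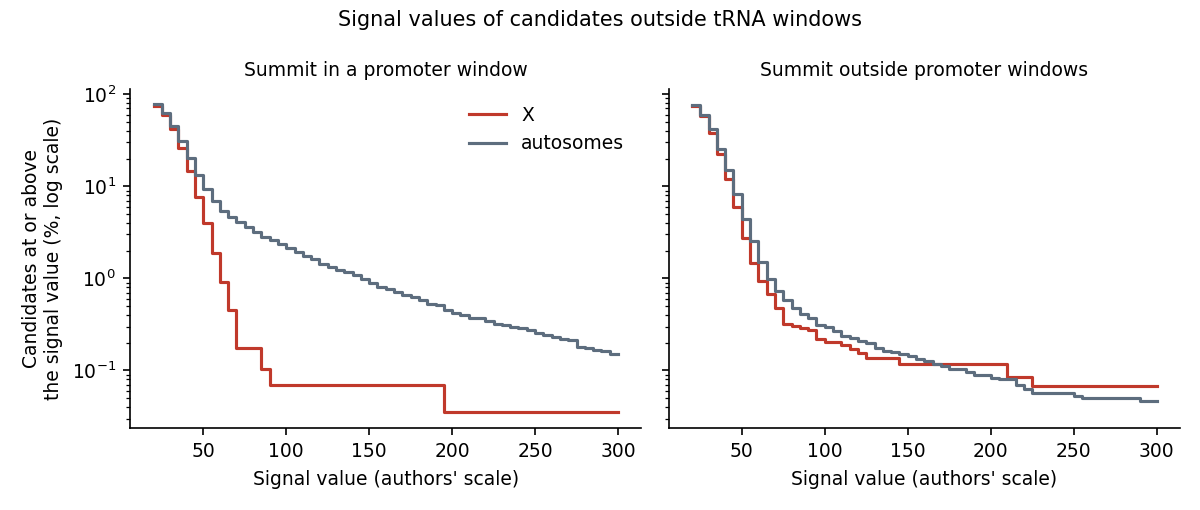
Share of candidates (vertical axis, %, log scale) with at least the signal value on the horizontal axis (authors' scale), for X and the autosomes, in promoter windows (left) and outside them (right). At promoters the X curve leaves the autosomal one, with 0.0700% and 2.15% at a value of 100. Outside promoters the gap is smaller, with 2.77% on X and 4.36% on the autosomes at 50, and 0.204% and 0.299% at 100.

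The strongest passing X member lay at chrX:1375266-1375333, 3258 bp past the start of the F-box gene fbxa-190 and 557 bp past its end. Its signal value was 337 in the main list and 122 in replicate 2, where it was listed. Replicate 1 had no candidate over it, but listed a peak beside it at chrX:1375184-1375248, with a value of 235.5. The listed peak of replicate 2, at chrX:1375189-1375432, overlapped both the main-list member and the peak of replicate 1. The main-list member itself did not overlap the peak of replicate 1, so it is not counted among the members found in both replicate lists.

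The next array lay beyond the non-coding RNA gene Y102A11A.11 and held a pair of members. The peak at chrX:2057965-2058043 had a signal value of 222, with 141 in replicate 1 and 62.3 in replicate 2, and was in both replicate lists. Its neighbour at chrX:2058092-2058361 had 106, with 50.2 and 28.6, and was listed in replicate 1. The fourth peak of this sequence family was at chrX:15635163-15635432. Its summit lay 1085 bp upstream of the minus-strand entry of the non-coding RNA gene K09E9.10. A plus-strand entry of that name has the same coordinates, and the summit lay 1085 bp past its end. The peak had 72.1, with 36.9 in replicate 1 and 39.5 in replicate 2. It was in neither replicate list.

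These 4 members, printed first above, share stretches of at least 20 bases with one another, and each repeats itself with a best period of 40 bases, at 65.8 to 96.9% identity around the summit. A heat shock element lay within 50 bp of the summit in 4 of the 20 passing X members (20%), in 40 of all 8748 (0.457%), and in 0.721% of all 54899 candidates. On the autosomes it was present in 32 of 787 passing peaks (4.07%). Outside promoter windows it was in 4 of 15 passing X members (26.7%) and in 17 of 159 passing autosomal peaks (10.7%). Of all candidates with the element, 4 of 40 passed on X (10%) and 32 of 356 on the autosomes (8.99%). The motif was searched after these sequences had been seen. Among X candidates with the element, 3 of 6 in tandem arrays passed and 1 of 34 others, against 17 of 67 and 15 of 289 on the autosomes. The 3 passing on X include the neighbouring pair beyond Y102A11A.11, which lies in the same array and is not independent. Arrays in these counts have at least 80% identity between successive units, and the 1 passing among the others is the member near fbxa-190, at 65.8%. A match describes the letters in the window and does not show which protein was bound.

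The single-exon non-coding RNA gene C30E1.9 (chrX:16929914-16944683) held a pair of passing members. The peak at chrX:16932364-16932633 had a signal value of 114, with 69.1 in replicate 1 and 46.4 in replicate 2, and was in both lists. The other, at chrX:16931719-16931988, had 66.9, with 36.5 in each library, and was listed in replicate 2. The libraries listed further peaks in the same exon, at 71.5 and 56.1 in replicate 1 and at 17.1 in replicate 2, none of which overlapped a passing member. The summits of the pair lay 4158 and 3513 bp from the nearest tRNA gene start, and they share a stretch of at least 20 bases.

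Intergenic sites near other genes followed. At chrX:3631671-3631940, 561 bp past the end of the glutathione S-transferase gene gst-11, the signal value was 93.7, with 49.9 in replicate 1, where it was listed, and 42.5 in replicate 2. The sequence there is a tandem array with a period of 11 bases. At chrX:17442623-17442892, 4072 bp past the start of C36E6.8, it was 92.6, with 54.0 and 43.1, and the peak was in both replicate lists. All of its 31-base stretches occur more than once in the reference.

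The intergenic peak at chrX:1503843-1504112 lay just beyond the end of tts-1, a long non-coding RNA gene, with its edge 19 bp and its summit 153 bp past the end. Its value was 64.4, with 36.1 in replicate 1 and 44.5 in replicate 2, where it was listed. The peaks near ZK1073.1, 2379 bp upstream (73.3, with 35.1 and 34.6), and ekl-5, 1059 bp upstream (55.2, with 38.3 and 31.3), were in neither replicate list.

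The promoter members were few and mostly weak. The peak at chrX:8181957-8182226, 452 bp upstream of C17H11.4, had a signal value of 89.6, with 31.8 in replicate 1 and 52.6 in replicate 2, where it was listed. It is the strongest candidate in any protein-coding promoter window on X, and its letters, printed above, are a short repeat shared in part with an unlisted region at chrX:1644000-1644269. Another, at chrX:15242765-15243034, lay 51 bp upstream of the microRNA gene cel-mir-4812, inside intron 7 of piki-1, which encodes a phosphoinositide 3-kinase. It had 81.1, with 54.5 in replicate 1, where it was listed, and 31.8 in replicate 2. It was the only passing X member with the letters of a B box, which 0.907% of all candidates away from tRNA genes carry, and the nearest annotated tRNA gene start was 1473 bp away.

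The other promoter members were in neither replicate list. The peak at chrX:15921819-15922088, 623 bp upstream of the pseudogene WBGene00304798, had 68.9, with 40.9 in replicate 1 and 30.9 in replicate 2. The summit at chrX:8017402-8017671 lay 111 bp past the start of the non-coding RNA gene C34D10.3 and 490 bp upstream of C34D10.5, inside intron 1 of unk-1, and had 58.9, with 34.1 and 33.9. At F46H5.7, 25 bp upstream of the start, the peak at chrX:7242873-7243142 had the lowest value of the 20, 46.6, with 39.6 and 34.5. It was the passing X member closest to a protein-coding start.

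Members inside genes lay in neither replicate list, apart from those of C30E1.9 and piki-1. The peak in exon 2 of meg-1, which encodes a P granule component of the embryonic germline, had a signal value of 74.4, with 37.3 in replicate 1 and 34.2 in replicate 2, and its summit was 604 bp past the gene start. The peak in exon 1 of C42D8.9 had 71.4, with 44.4 and 34.6, and began 141 bp past the end of the yolk protein gene vit-2, which C42D8.9 overlaps on the opposite strand. The introns of ags-3, a G protein regulator, and of aagr-4, named for its similarity to acid alpha-glucosidase, held peaks of 68.3 (36.5 and 35.2) and 67.0 (35.7 and 31.9).

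**Figure D4:**
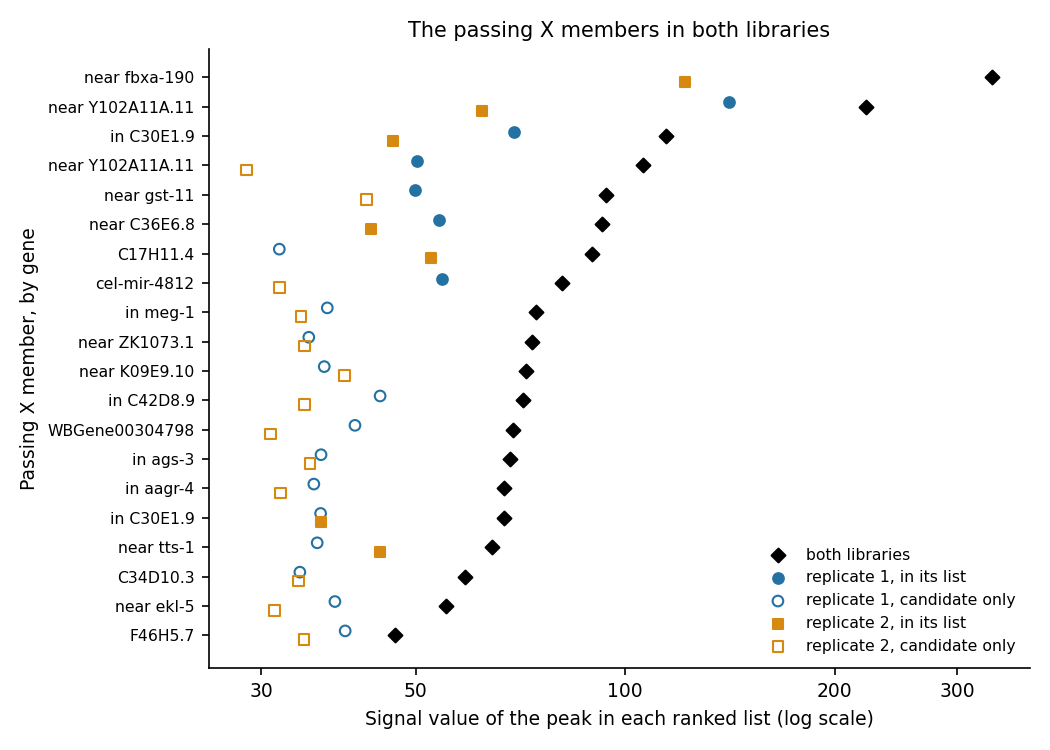
Signal values (horizontal axis, log scale) of the 20 passing X members in the main ranked list and in the ranked lists of replicates 1 and 2, ordered by the main value. The lists share the drawn axis, but values are to be compared only within a list. Filled symbols are peaks in that replicate's thresholded list and open symbols are candidates only: the strongest 8 each have a filled symbol, and 2 of the other 12 do.

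Few of the passing X members were in both replicate lists. Of the 20, 3 were in both lists, 3 in that of replicate 1 only, 4 in that of replicate 2 only and 10 in neither. On the autosomes 324 of 787 (41.2%) were in both and 266 (33.8%) in neither, and the X shares were 15% and 50%. The median signal value of the passing members was 72.7 on X and 99.6 on the autosomes. Among all X members 10 overlapped the list of replicate 1 (0.114%, against 476 or 1.03% on the autosomes and a background of 0.885%). The same number overlapped that of replicate 2, against 453 (0.982%) and a background of 0.843%. Of these overlapping members, 7 did not pass, 4 through replicate 1 and 3 through replicate 2. Ordered by signal value, the 19 members with a candidate in replicate 1 ranked from 54 to 2435 of its 45502 candidates, with a median of 1121. In replicate 2 all 20 ranked from 61 to 2639 of 38525, with a median of 1157.5.

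Repeated sequence was common among the passing members. A peak is called repeated here when at least 50% of its 31-base stretches occur more than once in the reference. This held for 7 of the 20 (35%), for 249 of all 8748 X members (2.85%) and for 65 of 787 passing autosomal peaks (8.26%). The passing peaks of X and the autosomes differ in place. Outside promoter windows the counts were 5 of 15 on X (33.3%) and 34 of 159 on the autosomes (21.4%). In promoter windows they were 2 of 5 and 31 of 628 (4.94%). Repeated candidates passed about as often on X, 7 of 249 (2.81%), as on the autosomes, 65 of 2101 (3.09%). The remaining candidates passed in 13 of 8499 cases on X (0.153%, 0.0815 to 0.261%) and in 722 of 44050 on the autosomes (1.64%, 1.52 to 1.76%). At promoters those numbers were 3 of 2797 (0.107%) and 597 of 15488 (3.85%). The ratio between autosomes and X without repeated peaks was 10.7 overall and 35.9 at promoters, against 7.46 and 22.4 with them. Of the 20 members, 7 had no repeated stretch at all, among them those of meg-1, ags-3, F46H5.7 and cel-mir-4812.

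Some of the strongest X regions reached the IDR threshold but are not in the main list. Left out were 15 of the 35 X members that reached it and 73 of the 860 autosomal candidates, so the part left out was larger on X. What kept these regions out is not stated. Per the readme files, the thresholded lists drew on 1 more file than the ranked ones, whose content is not described. The first, at chrX:15810953-15811141, had the highest signal value of the whole ranked list, 2023, and ranked first in both libraries, at 1125 in replicate 1 and 1102 in replicate 2. The next were at chrX:11785688-11785957 (519), chrX:15808143-15808249 (518) and chrX:293308-293577 (456). None of the 10 strongest overlapped a thresholded list of either replicate.

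These unlisted regions were mostly tandem arrays. Of the 15, 13 were repeated (86.7%), 12 were tandem repeats with at least 80% identity between successive units (80%), and 12 were intergenic. Repeated sequence was not particular to X: of the 73 unlisted autosomal regions, 71 were repeated (97.3%) and 41 were tandem repeats (56.2%). Among all candidates away from tRNA genes the shares were 4.28% and 0.801%. A family of 7 with shared stretches included the pair at chrX:110370-110639 (208) and chrX:113014-113087 (206), near elk-2 and the F-box gene fbxa-221, and the region at chrX:5056794-5057063 (192). The region at chrX:15808143-15808249 shared stretches with the strongest one. None of the 15 held a heat shock element within 50 bp of the summit, against 0.457% of all X members. Of the 73 such regions on the autosomes, 5 held it (6.85%).

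**Figure D5:**
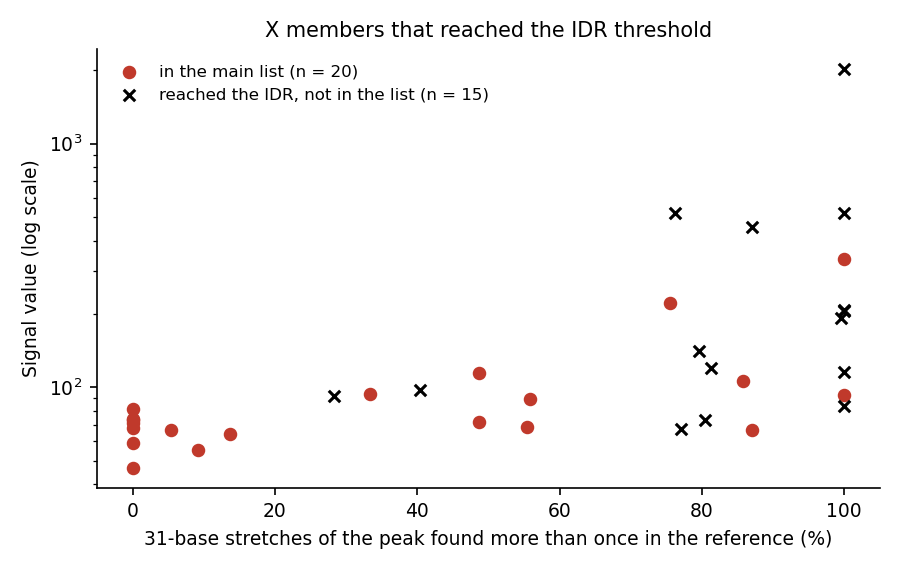
Signal value (vertical axis, log scale) against the share of 31-base stretches found more than once in the reference (horizontal axis, %), for the 35 X members that reached the IDR threshold. Points are the 20 in the main list and crosses the 15 that are not, of which 13 lie at 50% or more.

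At the edge of the threshold, the passing member with the lowest −log10 IDR, 2.07, was the second peak of the Y102A11A.11 array, and the highest below the threshold, 1.99, lay at chrX:15611313-15611582 with a signal value of 68.6.

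Few X genes had a passing peak in their window. Of the X protein-coding genes with a candidate there, 3 of 1243 had a passing one (0.241%), C17H11.4, C34D10.5 and F46H5.7, against 737 of 9025 on the autosomes (8.17%). The strongest of the others were the promoter candidates of serp-1.1 at 80.7, listed in replicate 2, and of lgc-47 (66.3), epn-1 (66.2), F57G12.1 (65.1) and paf-2 (64.7), none of which passed. Among ncRNA genes the counts were 1 of 1244 on X and 128 of 2790 on the autosomes (4.59%). None of the 25 X snoRNA genes with a candidate had a passing one, which allows a share of up to 12% when a count of 0 is read as at most 3, against 68 of 232 on the autosomes (29.3%). The snoRNAs guide chemical modification of ribosomal and other RNAs.

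Gene groups gave no passing X gene. The 13 gene lists, 2 of which have no gene on X, had 0 passing members on X, including those with many on the autosomes. Over all genes with a candidate in the window, 6 of 2693 on X (0.223%) and 1043 of 16282 on the autosomes (6.41%) had a passing one, so a count of 0 in a list is near the share of X as a whole. Ribosomal protein genes had 33 of 67 passing on the autosomes, while the 2 on X, rpl-11.2 and rpl-25.1, had strongest candidates of 19.5 and 29.1, against an autosomal median of 72.6. The germline and embryo list had 28 of 54 passing on the autosomes, with a median of 71.3. Its X members puf-9, coh-1 and cpg-19 reached 41.2, 34.1 and 29.2. The lists were made by symbol pattern, so a place in this one does not show that a gene acts in the germline. Respiratory chain genes had 10 of 31 on the autosomes, and sdha-1, ucr-2.1 and ucr-2.2 on X reached 34.5, 32.9 and 16.8. Neuropeptide genes had none passing on either, of 19 on X and 44 on the autosomes. With 2 or 3 genes of a list on X, these counts do not separate X from the autosomes.

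The yolk protein genes, expressed in the adult intestine, were measured at their promoters with no passing peak. The strongest candidate in the window of vit-2 had a signal value of 52.0, with 28.4 in replicate 1 and 25.5 in replicate 2. The values were 36.5 for vit-4 and 25.2 for vit-3, which are similar in sequence, so that reads may be shared between them, and vit-1 and vit-5 had no candidate in the window. Among the X genes of the sex signal and dosage compensation, sex-1, a nuclear receptor that counts X chromosomes, had 26.9 and ceh-39 had 20.3. The switch gene xol-1 and the genes sdc-1, sdc-2 and fox-1 had no candidate in their windows.

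The passing members were spread along X. Cut into 5 bins of equal length from the left end, the chromosome held 5, 3, 3, 2 and 7 passing members, of 1806, 1743, 1588, 1722 and 1889 candidates. The median signal value of all members stayed between 26.6 and 27.4 in the 5 bins. A tRNA gene start lay within 5000 bp of 4 of the 20 (20%), against 721 of all 8748 (8.24%). The C30E1.9 pair is among these 4. The median distance to a tRNA gene start was larger for the passing members, 65952 bp against 42433 bp for all X members.

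The GC content of passing X members differed by place. Within 50 bp of the summit its median was 51.5% in the 5 promoter members and 36.6% in the 15 others, against 39.6% in all X members. Passing autosomal peaks had 47.5% in promoter windows and 42.6% outside them. The letters CTGCGTCT were in none of the 20 and in 34 of 787 passing autosomal peaks (4.32%), against 1.06% of all candidates, counted on both strands. On the autosomes 32 of 628 passing promoter peaks had them (5.10%) and 2 of 159 others (1.26%), and among all X members 0.560% did. The letters CACGTG were in none of the 20 and in 25 of 787 (3.18%), against 2.45% of all. At shares this low, a count of 0 in 20 does not separate X from the autosomes.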

How the data were processed

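The authors deposited ranked and thresholded peak lists on ce11, per the labels, for each library and for both together. No aligner or peak caller is given in the sources used here. Per the readme files the lists of both libraries come from both alignments. The deposited signal value of each peak has no stated scale, and the ranked lists as deposited carry the global IDR as −log10. All peaks of the main list had at least 2 there, an IDR of at most 0.01. A further 16 columns of the joint lists carry no sample label and were not used.

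The members, gene lists and motifs were chosen with earlier results of these data known. Members were found by summit against Ensembl release 115 gene starts (WBcel235). A candidate matched a replicate peak when the overlap was at least 50% of either. A summit had 1 class: promoter window first, then UTR, coding exon, other exon, intron or intergenic. Genes named are those whose window holds a passing summit, the host or nearest gene of other passing members, genes at the 10 strongest members that did not pass, and the yolk protein and sex signal lists. Other genes named (the strongest promoter candidates that did not pass, the X genes of 3 lists, and vit-2 by its end) were chosen after their values were seen. Shares carry exact 95% Clopper-Pearson intervals, with no test. Repeats were counted as 31-base stretches of the reference, and tandem repeats within 100 bp of the summit with periods of 5 to 60 bases. The code was tested on simulated data. Alternatives were the other list, single libraries, other windows, overlap rules and signal cuts. Control libraries were not analysed here. Tools were scipy 1.17.1, pandas 2.3.3, numpy 2.4.6, matplotlib 3.10.9 and Python 3.11.15.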

Additional observations from a re-analysis of the deposited data

How the results depend on the processing

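The X share stayed below the autosomal share under every alternative tried. With only the strongest 450 peaks of the main list, 4 X members passed (0.0457%, autosomes 0.917%, ratio 0.0499), none of them in a promoter window, so that the promoter ratio and the promoter share were 0. With the upper part of the candidates the shares were 0.489% and 3.32%, by construction, since fewer candidates were counted. With no candidate left out for a tRNA gene, 55 X peaks passed (0.609%, ratio 0.336), the promoter ratio was 0.306 and promoter windows held 72.7% of them. A promoter window of 2000 and 500 bp held 50% of the passing X members. The other list gave 2.02% on the autosomes, and leaving out a library gave 1.27 to 1.42% there and 10 to 12 passing X peaks. Both of the next settings were chosen after seeing the data. Without repeated or tandem peaks, 11 X members passed (0.130%, ratio 0.0789). With unlisted regions that reached the IDR counted, 35 passed (0.400%, autosomes 1.86%, ratio 0.215). Where construction does not show it, the cause was not tested. Members found in both replicate lists numbered 2 to 4 under other overlap rules. No paired analysis was possible because there is 1 group. The lists hold no counts, so no limit set by depth can be given.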
